A study of Rattus norvegicus with 6 samples.

Results

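The insulin-like growth factor (IGF) axis was examined in the kidney of diabetic rats through 10 genes, taken by name: the ligands Igf1 and Igf2, the receptors Igf1r and Igf2r, and the binding proteins Igfbp1, Igfbp2, Igfbp3, Igfbp4, Igfbp5 and Igfbp6. Each of the 10 had 1 row of the value table paired with its symbol alone, out of 36685 rows and 18166 genes with such a row. The HQYDP group consisted of male Sprague-Dawley rats made diabetic with streptozotocin at 60 mg/kg, which kills β cells of the pancreas, and then given the Qishen Yiqi dripping pill (QYDP), an extract of several herbs, by gavage at 300 mg/kg/day for 8 weeks. The DM group had the same streptozotocin and an equal volume of saline. The arrays were labelled as kidney of rats aged 17 weeks, and the methods give kidney cortex and the doses. Each group had 3 arrays (Affymetrix Rat Gene 2.0 ST), and the methods give 6 rats per group. The sources used here do not say which rats the arrays came from, or that each came from another rat. All rats of both groups had a chemical diabetes, so that no kidney without diabetes enters any comparison.

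IGF ligands activate the receptor tyrosine kinase Igf1r, which signals through insulin receptor substrates, phosphatidylinositol kinase and Akt to growth and to the FoxO transcription factors. Igf2r carries no kinase and takes Igf2 into the lysosome, and the secreted binding proteins hold IGFs away from the receptor, carry them, or act on cells by themselves. In the kidney the axis is known for its part in renal growth and filtration, and in the growth of the kidney early in diabetes. Igfbp1 is well known for the repression of its gene by insulin.

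Of the 10 genes, Igfbp1 was lower in HQYDP than in DM kidneys and the other 9 did not pass the study thresholds, taken as a fold beyond 1.5 (0.585 on the log2 scale) with a p below 0.05 before adjustment. Over all 18166 genes, 3.28% passed these thresholds in limma's moderated test, with 1.46% higher and 1.82% lower in HQYDP. Nothing is read about the axis as a group from a count of 1 gene. Igfbp1 is also among the genes that the study listed from these same samples, so its passing is not independent evidence. None of the 10 had a Benjamini-Hochberg adjusted p under 0.05 in limma, against 0.0165% of all genes, and 2 of the 10 had an unadjusted p under 0.05. The median log2 difference, HQYDP minus DM, was 0.07 over the 10 genes and -0.0017 over all genes, with 5 of the 10 above 0 and 5 below. Groups did not overlap in 2 of the 10 genes, Igfbp1 and Igf1r, where 12.1% of all genes did not overlap. An exact permutation test of 3 arrays against 3 cannot give a two-sided p below 0.1, so the limma fit over all genes was used.

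The arrays of the DM group differed among themselves. The first principal component of all genes placed DM replicate 1 at 17.9 and DM replicate 2 at 39.5, but DM replicate 3 at -14.9, inside the HQYDP range of -16.2 to -10.6. The median value of the arrays over all rows ran from 4.70 to 4.85. A re-analysis is noted in the labels of the 3 DM arrays and of no HQYDP array, so a batch and the group cannot be told apart. Of the genes past the study thresholds 44.6% were higher in HQYDP. After each array was centred on its median over the 18166 genes, 61.1% were. This median over genes, unlike that over all rows, ran from 5.535 to 5.591 in HQYDP and from 5.578 to 5.662 in DM. The median log2 difference over all genes was -0.0017 before this centring and 0.0667 after it. Kidney markers were present on every array, with log2 values of 11.7 to 11.9 for the megalin gene Lrp2 and 11.4 to 12.4 for Umod, which encodes uromodulin, but several moved with the groups. Of 5 thick limb markers 3 were higher in HQYDP at the study thresholds, Umod (0.65), Cldn16 (0.73) and Casr (0.89), against 1.46% of all genes. The 4 measured podocyte markers were above DM on every HQYDP array, with mean differences of 0.20 to 0.49 and none past the thresholds. Of all genes, 12.1% did not overlap between the groups in either direction. None of 7 proximal tubule markers passed, and 6 of them, all but Lrp2, had a difference below 0. The part of these cells in the results was not tested. These are bulk tissue values, in which fewer cells of a type and less RNA per cell cannot be told apart.

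**Figure D1:**
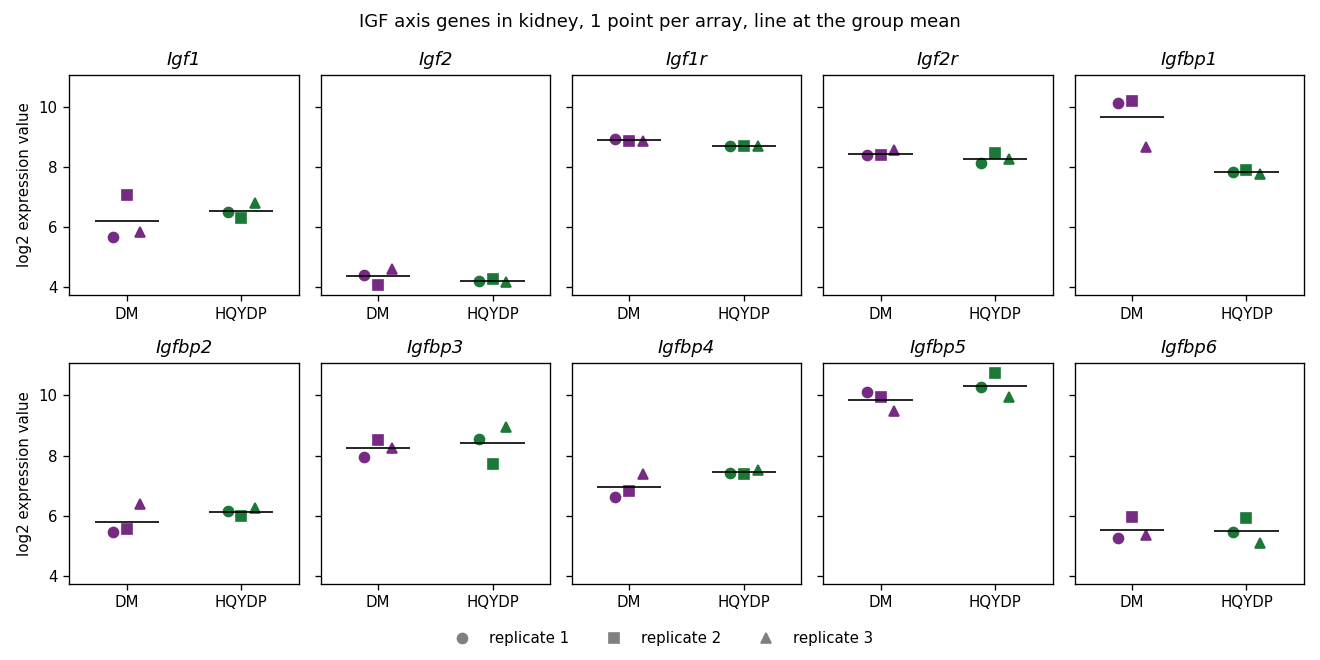
The log2 expression value of each of the 10 IGF axis genes (vertical axis, log2 scale) on the 3 DM and 3 HQYDP arrays, with 1 point per array and a line at each group mean. Igfbp1 sits between 7.77 and 7.90 in HQYDP and between 8.67 and 10.21 in DM, whereas most other genes overlap, and levels of different genes are not comparable since each is read by its own probes.

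Igfbp1 encodes a secreted binding protein that liver and kidney make and that insulin represses. Its log2 values were 10.12, 10.21 and 8.67 in DM replicates 1 to 3, and 7.83, 7.90 and 7.77 in HQYDP replicates 1 to 3. Every HQYDP array lay below every DM array, with a gap of 0.77 between the lowest DM and the highest HQYDP value. DM replicate 3 lay 1.54 below the highest DM array, so the spread within DM was wider than that gap. The DM mean was 9.67 ± 0.87 (SD, n = 3) and the HQYDP mean 7.83 ± 0.06 (SD, n = 3). The log2 difference was -1.83 (standard error 0.35, 95% interval -2.62 to -1.04), a level 3.56-fold lower, with adjusted p = 0.228 from limma. This placed Igfbp1 at rank 36 of all genes by p.

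The size of the Igfbp1 difference depended on the DM arrays. With 1 array left out at a time the log2 difference ran from -1.56, without DM replicate 2, to -2.33, without DM replicate 3. It passed the study thresholds with limma in each of these 6 fits, and in 16 of all 17 alternatives, the exception being another test on all 6 arrays. Without DM replicate 3 the adjusted p was 0.00165 from limma, and in the other 5 it ran from 0.366 to 0.554. Igfbp1 mRNA thus stood at a like level on all HQYDP arrays and varied among the DM arrays.

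The regulatory sequence upstream of Igfbp1 is shown because insulin is known to repress this gene through it, by way of FoxO factors. The window holds 250 bases before and 50 bases after the start site from RefSeq on GRCr8, on the plus strand at chr14:86261027-86261326. Capitals mark the letters of the insulin response element, searched on both strands as TGTTTTG or TATTTTG, and of the FoxO consensus TGTTTAC. The window of Igf1 (plus strand, chr7:24172282-24172581) is given beside it, since it was the other window of the axis with a match to the insulin response element.
Igfbp1: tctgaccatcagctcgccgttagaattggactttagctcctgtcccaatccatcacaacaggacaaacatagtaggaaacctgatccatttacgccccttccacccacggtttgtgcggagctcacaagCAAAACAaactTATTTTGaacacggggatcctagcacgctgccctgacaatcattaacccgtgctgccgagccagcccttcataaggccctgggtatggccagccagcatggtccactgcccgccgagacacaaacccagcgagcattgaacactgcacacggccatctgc
Igf1: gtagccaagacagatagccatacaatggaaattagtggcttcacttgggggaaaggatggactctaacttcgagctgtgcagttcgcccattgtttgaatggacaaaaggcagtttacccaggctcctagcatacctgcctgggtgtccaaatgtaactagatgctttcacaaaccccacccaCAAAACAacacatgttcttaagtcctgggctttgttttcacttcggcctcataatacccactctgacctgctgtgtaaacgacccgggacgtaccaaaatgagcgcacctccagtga

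Igfbp1 held both forms of the element, CAAAACA (the reverse complement of TGTTTTG) at positions -121 to -115 from the start site and TATTTTG at -110 to -104, which do not overlap each other. Of 33469 rat promoter windows of this length, 6.28% held the first form, 4.96% the second and 0.43% both. The Igf1 window held 1 match, CAAAACA at -67 to -61. All 10 genes had a window in the table, Igf2 with 2 start sites, and none of the other 8 genes held either form. Igfbp6 held a FoxO consensus at -221 to -215, a match that 3.78% of windows had. The core of the hypoxia response element, ACGTG, was in the windows of Igf1r, Igf2r, Igfbp2 and 1 of Igf2, against 19.3% of all windows, and not in that of Igfbp1. The amino acid response core TGATGNAA, in 3.98% of windows, was in none of the 10 genes. These matches describe the letters in a short window, and binding was not measured.

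The ligands did not pass the thresholds. Igf1, the growth factor made in liver and in many tissues under growth hormone, had log2 values of 5.70, 7.07 and 5.85 in DM and 6.51, 6.31 and 6.80 in HQYDP. DM replicate 2 had the highest value of all 6 arrays and the other DM arrays the lowest, so that the groups overlapped. The difference was 0.33 (standard error 0.33, 95% interval -0.40 to 1.06, adjusted p = 0.93 from limma), and DM replicate 2 decided its size. Without that array Igf1 was higher in HQYDP by 0.76, past the study thresholds (adjusted p = 0.554 from limma), and with DM replicate 1 left out the difference was 0.08. DM replicate 2 also had the highest mean of 7 fibroblast and mesangial markers, 1.03 above the mean of the 6 arrays on the log2 scale, and of 7 macrophage markers, 1.02 above it. The other arrays lay from -0.54 to -0.04 for the fibroblast list and from -0.55 to 0.53 for the macrophage list. The 0.53 was that of DM replicate 1, whose Igf1 value of 5.70 was the lowest of all arrays. All 7 macrophage markers and 2 of the 7 fibroblast markers, Pdgfrb and Col1a1, were lower in HQYDP at the study thresholds. Of all genes 1.82% were. Among the macrophage markers Cd68, Csf1r, Ptprc, C1qa and C1qb overlapped between the groups, and Cd14 and Adgre1 did not. The part of these cells in the Igf1 values was not tested.

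Igf2, the fetal growth factor of the family, had log2 values of 4.43, 4.08 and 4.62 in DM and 4.22, 4.29 and 4.19 in HQYDP. The groups overlapped, with both the highest and the lowest value in DM. The difference was -0.14 (standard error 0.17, 95% interval -0.53 to 0.24, adjusted p = 0.953 from limma). Of the proteins that bind Igf2 mRNA, Igf2bp1 and Igf2bp2 were measured and had log2 differences of 0.07 and -0.50, neither past the thresholds.

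Both receptors were slightly lower in HQYDP by mean, with intervals inside the 1.5-fold limits. Igf1r, the signalling receptor, had log2 values of 8.93, 8.86 and 8.88 in DM and 8.70, 8.70 and 8.71 in HQYDP. The groups did not overlap, and HQYDP had the smallest spread of the 10 genes (SD 0.0048). The difference was -0.19 (standard error 0.14, 95% interval -0.50 to 0.13, adjusted p = 0.881 from limma), a fold of 1.14, and it ran from -0.20 to -0.17 with 1 array left out and was -0.12 after median centring. Igf2r, the mannose 6-phosphate receptor that clears Igf2 and sorts lysosomal enzymes, had 8.41, 8.41 and 8.56 in DM and 8.13, 8.48 and 8.27 in HQYDP. HQYDP replicate 2 lay above 2 of the DM arrays. The difference was -0.17 (standard error 0.16, 95% interval -0.52 to 0.18, adjusted p = 0.924 from limma). Together with Igf2 these were the 3 genes of the axis whose 95% interval lay within a 1.5-fold change in either direction. Igf2 was dim, at percentile 27.5 of all genes by mean, where Igf1r was at 93.8 and Igf2r at 90.8.

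**Figure D2:**
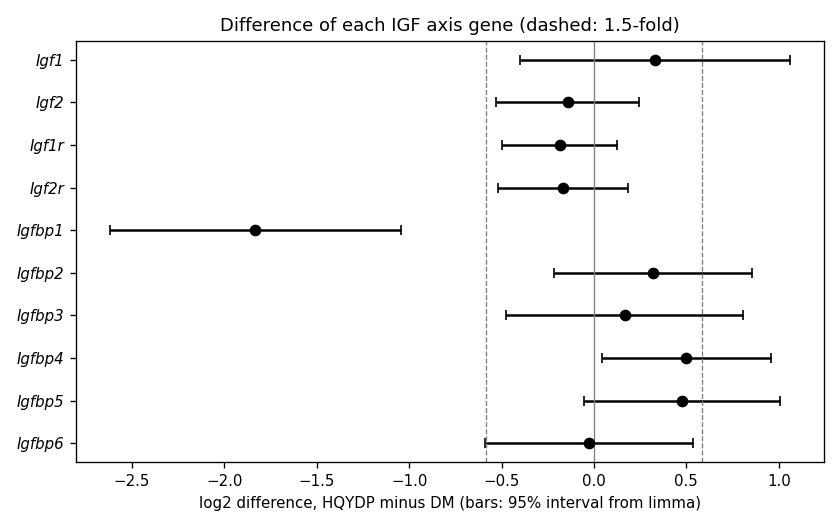
The log2 difference, HQYDP minus DM, of each of the 10 genes on the horizontal axis, with its 95% interval from limma and dashed lines at a 1.5-fold change. Igfbp1 at -1.83 is the gene whose interval lies wholly beyond the dashed line, and Igfbp4 at 0.50 has an interval just above 0.

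Among the other binding proteins, Igfbp4 and Igfbp5 were nearest to the thresholds, on the higher side in HQYDP. Igfbp4, which mostly inhibits IGF action and is cut by the protease Pappa, had log2 values of 6.63, 6.81 and 7.39 in DM and 7.41, 7.39 and 7.53 in HQYDP. The treated arrays were close together, DM replicates 1 and 2 lay below them, and DM replicate 3 lay at the level of HQYDP replicate 2. The difference was 0.50 (standard error 0.20, 95% interval 0.04 to 0.96, adjusted p = 0.615 from limma), a fold of 1.41, with p below 0.05 before adjustment only. Without DM replicate 3 it was 0.72 and passed the study thresholds (adjusted p = 0.0931 from limma). Igfbp5, which also binds extracellular matrix, had 10.11, 9.96 and 9.48 in DM and 10.29, 10.74 and 9.94 in HQYDP. HQYDP replicate 3 overlapped with DM. The difference was 0.48 (standard error 0.24, 95% interval -0.06 to 1.01, adjusted p = 0.737 from limma). It passed the study thresholds without HQYDP replicate 3, at 0.67, and without DM replicate 1, at 0.61, and was 0.27 without HQYDP replicate 2.

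Igfbp2, Igfbp3 and Igfbp6 had intervals on both sides of 0. Igfbp2, which like Igfbp1 carries an integrin-binding motif, had log2 values of 5.47, 5.55 and 6.38 in DM and 6.15, 5.97 and 6.25 in HQYDP. DM replicate 3 was the highest of all arrays and the other DM arrays the lowest. The difference was 0.32 (standard error 0.24, 95% interval -0.22 to 0.86, adjusted p = 0.88 from limma), and without DM replicate 3 it was 0.61, past the study thresholds (adjusted p = 0.162 from limma). Igfbp3, the main IGF carrier of blood, had 7.96, 8.51 and 8.25 in DM and 8.54, 7.74 and 8.94 in HQYDP, with both the highest and the lowest array in HQYDP. The difference was 0.17 (standard error 0.29, 95% interval -0.48 to 0.81, adjusted p = 0.973 from limma), and it turned to -0.10 without HQYDP replicate 3 and was 0.50 without HQYDP replicate 2, past the thresholds in neither. Igfbp6, which prefers Igf2, had 5.25, 5.96 and 5.35 in DM and 5.47, 5.91 and 5.10 in HQYDP. Replicate 2 was the highest array of both groups for this gene. The difference was -0.03 (standard error 0.25, 95% interval -0.59 to 0.54, adjusted p = 0.997 from limma), and its sign changed with the scaling, to 0.02 after quantile normalization and 0.04 after median centring.

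Igfbp1 and Igfbp3 are next to each other among the protein-coding genes of chromosome 14, and Igfbp2 and Igfbp5 on chromosome 9, by the order of RefSeq genes on GRCr8. In the first pair the log2 differences were -1.83 and 0.17, and in the second 0.32 and 0.48. Whether the differences within a pair are unequal was not tested. The standard deviation within DM was larger than within HQYDP in 6 of the 10 genes, and ran from 0.03 for Igf1r to 0.87 for Igfbp1 in DM and from 0.0048 for Igf1r to 0.61 for Igfbp3 in HQYDP.

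**Figure D3:**
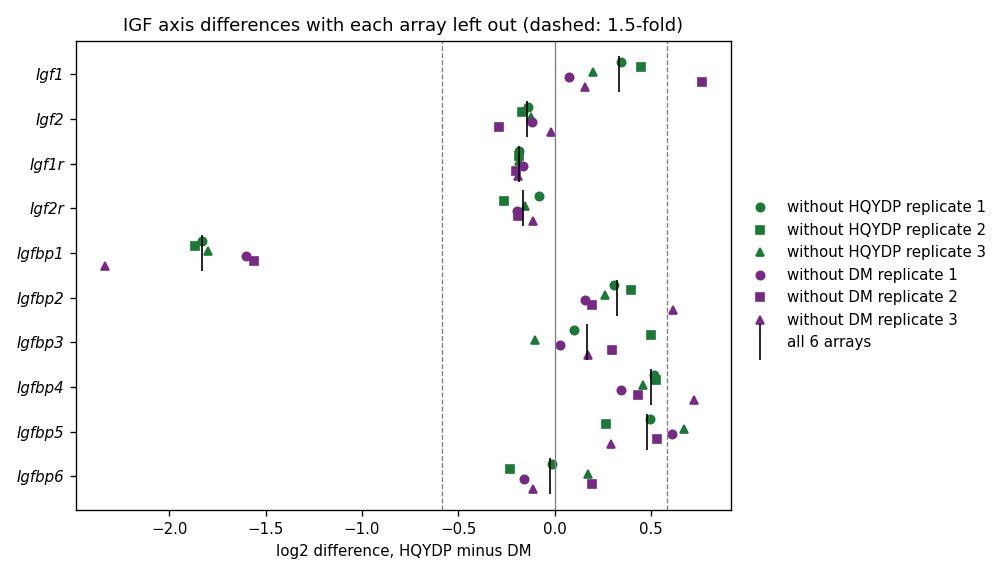
The log2 difference, HQYDP minus DM, of each of the 10 genes with each array left out in turn (colour for the group and shape for the replicate left out) and with all 6 arrays (black bar), and dashed lines at a 1.5-fold change. Igfbp1 stays between -2.33 and -1.56, Igf1 reaches 0.76 without DM replicate 2, and Igfbp2 and Igfbp4 reach 0.61 and 0.72 without DM replicate 3.

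The profile of Igfbp1 over the 6 arrays was set against every other gene, as the root-mean-square difference of log2 values after each gene was centred on its mean. The nearest genes were Fgb, the fibrinogen β chain, at 0.18, Osmr, the oncostatin M receptor, at 0.21, the membrane glycoprotein gene Gpnmb at 0.23, the kininogen gene Kng1 at 0.26 and the metalloprotease gene Adamts1 at 0.27. Fgb and Kng1 are best known from liver. In all 5, DM replicates 1 and 2 were the highest arrays and DM replicate 3 was between them and HQYDP. Fgb, for example, had 7.84, 7.80 and 6.45 in DM and 5.06, 5.46 and 5.35 in HQYDP. The likeness is a description over 6 arrays, and it includes the difference between the groups.

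**Figure D4:**
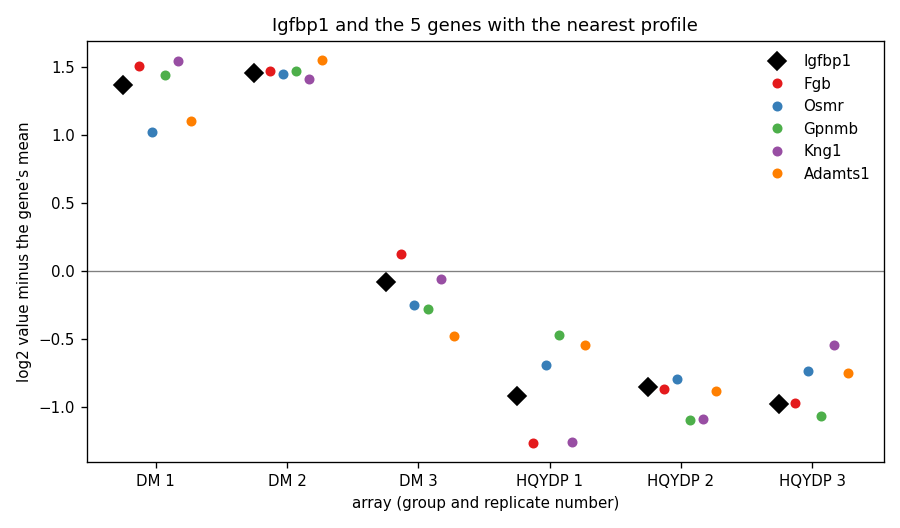
The log2 value minus the gene's own mean (vertical axis, log2 scale) on each of the 6 arrays for Igfbp1 (black diamonds) and the 5 genes with the nearest profile (coloured circles). DM replicates 1 and 2 stand more than 1 above the mean for each gene, and DM replicate 3 lies between them and the HQYDP arrays.

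Most markers of tubular injury, but not all, ran with the same arrays as Igfbp1. Of 7 such markers 5 were lower in HQYDP at the study thresholds, against 1.82% of all genes. Among them were Havcr1 and Lcn2, which overlapped between the groups, and Spp1 and Clu, which did not. Vcam1 and Krt20 did not pass. Vcam1 had 6.35 in DM replicate 1, below 6.45 and 6.41 in HQYDP replicates 1 and 3. Krt20 was highest in DM replicate 3, at 3.92. The mean of the 7 genes, relative to all arrays, was 1.15 and 1.32 on the log2 scale in DM replicates 1 and 2, -0.33 in DM replicate 3 and -0.96 to -0.50 in HQYDP. Clu had 12.46, 11.67 and 10.15 in DM and 9.29 to 10.03 in HQYDP. The part of injured tubules in the Igfbp1 values was not tested. Of hepatocyte markers, taken because liver is the main source of circulating Igf1 and Igfbp1, 6 of 7 were measured and none passed in either direction. Their mean ran from -0.30 to 0.19 in HQYDP and from -0.26 to 0.41 in DM. The part of liver tissue in the Igfbp1 values was not tested. The defining gene Tat had log2 values of 3.92 to 4.24 over all arrays, and Alb of 4.90 to 7.27.

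Around the axis, 14 further extracellular genes were measured, with a list median of 0.07. Of these, 3 passed the study thresholds as higher in HQYDP and 0 as lower, against 1.46% and 1.82% of all genes. Insrr, a receptor of the insulin receptor family that responds to alkaline pH and is known in intercalated cells, had log2 values of 5.42, 5.14 and 5.37 in DM and 6.06, 6.68 and 5.81 in HQYDP. All HQYDP arrays were above all DM arrays, and differed by 0.87 (standard error 0.22, adjusted p = 0.345 from limma). Insrr passed in 16 of 17 alternatives. Of 7 collecting duct markers 1 was higher at the study thresholds, the intercalated cell gene Atp6v1b1 (0.66, no overlap), while Foxi1 and Slc4a1 of the same cells had 0.38 and 0.17. The part of these cells in the Insrr values was not tested. Pappa2, a protease that cuts Igfbp3 and Igfbp5, had 4.41, 3.97 and 3.91 in DM and 4.93, 5.10 and 4.54 in HQYDP. Here too the groups did not overlap, and the arrays differed by 0.76 on average (standard error 0.20, adjusted p = 0.357 from limma). Pappa2 was dim, at percentile 31.0 of all genes by mean. The related Pappa, which cuts Igfbp4, had 0.46 (adjusted p = 0.674 from limma), under the fold threshold, and passed at 0.67 without HQYDP replicate 3.

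Stc1, a stanniocalcin, was higher by 0.98 on the log2 scale (standard error 0.44, adjusted p = 0.673 from limma). Its highest array was HQYDP replicate 1 at 8.83 and its lowest DM replicate 3 at 6.07, while the other 4 lay from 7.18 to 7.60 and overlapped. The difference was 0.53 without HQYDP replicate 1 and 0.55 without DM replicate 3, and Stc1 passed the study thresholds in neither fit, nor without DM replicate 1. In all it passed in 9 of 17 alternatives, and among those where it did not were the methods' t-test, quantile normalization, the stricter filter on dim genes and all rows in 1 fit. The related Stc2, an inhibitor of Pappa, had 0.15, and Igfals, which joins Igf1 and Igfbp3 in the large complex of blood, had 0.04. The insulin receptor Insr had 7.37, 7.48 and 7.53 in DM and 7.47, 7.54 and 7.40 in HQYDP, a difference of 0.0045 with a 95% interval from -0.32 to 0.33. Ins1 had 0.60, which came from HQYDP replicate 2 alone, at 4.06 against 1.92 to 2.58 on the other arrays, and Htra3 had -0.41. Neither passed. Insrr and Pappa2 are among the genes that the study listed from these samples, so their passing is not independent evidence.

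None of 33 measured genes of IGF and insulin signalling passed the study thresholds, of 40 listed, and their median difference was -0.05. The count at an unadjusted p under 0.05 in limma was 2, Pik3r1 and Shc1. Pik3r1, the regulatory subunit of phosphatidylinositol kinase, had log2 values of 8.85, 9.10 and 8.29 in DM and 8.18, 8.06 and 8.26 in HQYDP. The groups did not overlap, and the difference was -0.58 (standard error 0.21, adjusted p = 0.55 from limma), a fold of 1.49. The adaptor Shc1 had -0.44 and the insulin receptor substrate Irs2 -0.43, and Irs1 had -0.14. Eif4ebp1, a translation inhibitor downstream of mTOR, had -0.34. Akt1, Akt2, Mtor, Foxo1 and Foxo3 had differences from -0.22 to 0.05.

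In the growth hormone axis, with a median of -0.23, 1 of 10 genes was higher and 1 lower, against 1.46% and 1.82% of all genes. Prlr, the prolactin receptor, had 7.30, 6.94 and 7.19 in DM and 8.87, 8.19 and 7.70 in HQYDP, and was higher by 1.11 (standard error 0.27, adjusted p = 0.3 from limma). All treated arrays lay above all DM arrays. Socs3, a feedback inhibitor of cytokine and growth hormone receptors, had 6.96, 8.30 and 5.65 in DM and 5.60, 5.24 and 5.27 in HQYDP. Its difference was -1.60 (standard error 0.52, adjusted p = 0.483 from limma), and -0.93 without DM replicate 2. Socs3 passed in 15 of 17 alternatives, and not with the methods' t-test, and Prlr passed in 16 of 17. The growth hormone receptor Ghr, through which Igf1 is induced, had 8.18, 8.29 and 8.73 in DM and 8.83, 8.90 and 8.70 in HQYDP, with 0.41 (adjusted p = 0.67 from limma), under the fold threshold. Its growth hormone targets Socs2 and Cish had -0.30 and -0.31, with overlap between the groups.

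Igfbp1 belongs to several known target sets and is itself in the count of each. Over all genes 1.82% were lower and 1.46% higher at the study thresholds. Of 18 listed names of genes that FoxO factors activate or insulin represses, 16 were measured. G6pc, which the study lists among its changed genes, had no row paired with its symbol alone. Of the 16 measured genes 2 were lower and none higher, Igfbp1 and Pdk4, with a median of -0.18. The difference was below 0 in 12 of the 16 and above 0 in 4. Pdk4, which holds back pyruvate dehydrogenase, had 8.86, 8.95 and 8.76 in DM and 7.78, 7.66 and 7.75 in HQYDP. In contrast to Igfbp1 its DM arrays were close together, and the difference was -1.12 (standard error 0.14, adjusted p = 0.0576 from limma). It ran from -1.17 to -1.08 with 1 array left out. The promoter window of Pdk4, of the same short length, held no match to the insulin response element or the FoxO consensus. Sequence outside the window was not searched. Pck1, the gluconeogenic enzyme that insulin also represses, had 0.07, Bcl6 -0.32, Fbxo32 -0.25, Sesn3 -0.23 and Klf15 0.23, none past the thresholds.

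Of 13 measured targets of hypoxia-inducible factors 3 were lower and none higher, Igfbp1, Hilpda and Ndrg1, with a median of 0.11. The lipid droplet gene Hilpda had -0.63 (adjusted p = 0.416 from limma) and Ndrg1 -0.59 (adjusted p = 0.426 from limma), close to the fold threshold. Neither passed without HQYDP replicate 3, nor Hilpda without DM replicate 3 or Ndrg1 without DM replicate 1. After median centring neither passed, at -0.56 for Hilpda and -0.52 for Ndrg1, and Ndrg1 did not pass after quantile normalization, at -0.55. Vegfa had 0.11, the glucose transporter Slc2a1 0.16, Adm 0.20 and Ddit4 -0.34. The study listed Hilpda and Ndrg1 too. Of 12 measured targets of the amino acid response 2 were lower, Igfbp1 and the stress factor Atf3, with a median of -0.03. Atf3 had 7.38, 9.34 and 6.71 in DM and 5.77, 5.68 and 6.01 in HQYDP, and its difference was -1.99 (standard error 0.53, adjusted p = 0.361 from limma), or -1.23 without DM replicate 2. Like Socs3, it passed in 15 of 17 alternatives, and not with the methods' t-test. Atf4 itself had -0.06, Ddit3 0.13, Trib3 -0.32, Asns -0.27 and Psat1 0.33. Outside the 10 genes, the 7 lists held 94 distinct measured genes. Of these, 4 were higher and 5 lower at the study thresholds, against 1.46% and 1.82% of all genes.

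**Figure D5:**
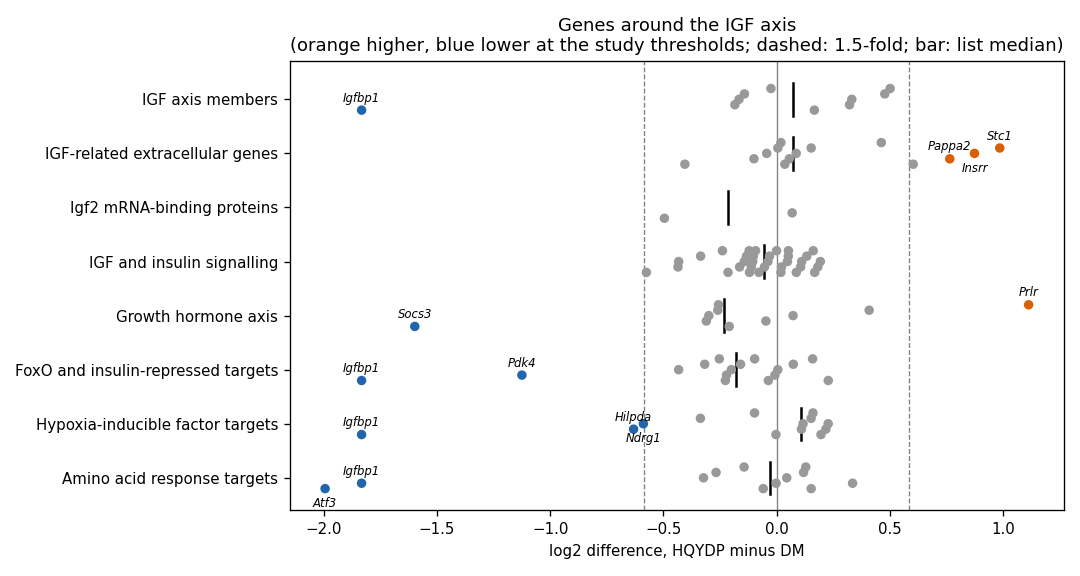
The log2 difference, HQYDP minus DM, of each measured gene (horizontal axis) in the IGF axis and in 7 lists around it, with black bars at the list medians and dashed lines at a 1.5-fold change. Igfbp1 stands at -1.83 in its 4 lists, most genes lie between the dashed lines, and 9 other genes passed the study thresholds (orange higher, blue lower).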

How the data were processed

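The measurements were 6 Affymetrix Rat Gene 2.0 ST arrays of kidney cortex RNA, 3 for HQYDP and 3 for DM. The authors deposited 1 log2 value per transcript and array, with software and normalization not given in the sources used here. The log base was inferred from the range. Symbols came from the platform annotation, and 18059 of 18166 genes had an Entrez ID in RefSeq (GRCr8). The highest-mean row was kept for each gene, with no filter on dim genes. HQYDP was set against DM over all genes by the moderated test of limma 3.58.1 (R 4.3.3), two-sided and without covariates, with Benjamini-Hochberg adjustment. The labels do not say that arrays of a group are separate rats, so p-values measure the spread between these arrays, and the number of arrays limits the precision. The fit was tested on simulated data. Named genes were the 10 members, list genes past the study thresholds or with the largest differences, 6 receptors, carriers and proteases fixed by name, and nearest profiles. Other list genes were named after their values were seen. Members and lists were chosen with earlier results of these data known. Alternatives are given in the closing section.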

Additional observations from a re-analysis of the deposited data

How the results depend on the processing

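Each of the 10 genes was refitted under 17 alternatives (16 for Igf2 and Igfbp6, which the stricter filter on dim genes removed), 168 values in all, of which 162 stayed on the same side of the study thresholds and 162 kept their sign. Igfbp1 passed in 16 of 17, with log2 differences from -2.33 to -1.56, and did not pass with Welch's test, under which 0 of the 10 passed and 1, Igf1r, had an unadjusted p under 0.05. With 1 array left out, 1 to 3 of the 10 passed. The count of all genes at the study thresholds, 596 in the limma fit, was 278 with the methods' t-test, 200 with Welch's test, 362 with the stricter filter (9083 genes left), 1121 with all rows in 1 fit, and 504 to 1109 with 1 array left out (1109 without DM replicate 3, with 34.2% higher). The count at an adjusted p under 0.05, 3 in limma, was 8 with an intensity trend, 16 with array weights, 11 after median centring, 9 with a milder filter (13624 genes left), 7 with the stricter one, and 0 with the methods' t-test, Welch's test and all rows in 1 fit, where 1145, 807 and 1888 had an unadjusted p under 0.05 (1340 in limma). With 1 array left out it ran from 0 to 151, with 151 without DM replicate 3 and 0 without replicate 1 or 3 of HQYDP or replicate 2 of DM, where 1013, 1133 and 1199 had an unadjusted p under 0.05. With the replicate block 661 genes passed the study thresholds, 2 had an adjusted p under 0.05 and 1 of the 10 genes passed. Same-numbered arrays had correlations of deviations of 0.142, -0.083 and 0.21. HQYDP replicates 1 and 3 correlated best with the DM array of the same number, and HQYDP replicate 2 with DM replicate 1, at 0.224. Deviations from a mean of 3 arrays depend on each other, so these values cannot decide whether same-numbered arrays share more than a number. Welch's test also ended the calls of Insrr, Prlr, Stc1, Socs3, Atf3, Osmr, Gpnmb and Adamts1. The methods' t-test ended those of Stc1, Socs3, Atf3 and Adamts1. For 18 other named genes, 25 of 301 values lost their call and 1 gained it.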
